A study of Homo sapiens with 6 samples.

Results

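Lysosome genes were followed in MDA-MB-231 cells, a line of triple negative breast cancer origin, after transfection with the microRNA miR-200a with or without a plasmid for the transcription factor ELK3. The set was put together by function, with earlier results of these data known, and its rule uses no measured value. It holds 39 genes out of 24462 gene symbols listed, namely 9 cathepsins and other peptidases, 9 glycosidases, 4 sulfatases, 4 lipid-degrading hydrolases, 4 soluble proteins that are not themselves hydrolases, 5 membrane proteins, 3 subunits of the proton pump and the transcription factor TFEB. All 39 were detected, and all 39 were among the 12650 symbols that passed the filter on low counts.

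The lysosome is the acidic compartment in which cells break down proteins, glycans, lipids and nucleic acids taken up from outside or delivered by autophagy. Most of its hydrolases are tagged with mannose 6-phosphate in the Golgi and carried by mannose 6-phosphate receptors, and the V-ATPase pumps protons across its membrane to keep the lumen acidic. TFEB and its relatives TFE3 and MITF bind a short palindrome, the CLEAR element, in the promoters of many lysosome genes. In breast cancer cells, cathepsins are best known as proteases that can also be released and cut extracellular matrix.

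The 3 groups had 2 libraries each and were harvested 48 h after transfection. Cells received a negative control mimic (NC mimic), miR-200a at 100 nM, or miR-200a at that dose and 30 ng of a plasmid for ELK3. The plasmid is called pcDNA3.1-Flag-ELK3 in one label and pcDNA3.1 Hygro(+)-ELK3 in another, and no label names an empty plasmid in the other 2 groups. The cells were a transiently transfected, unselected population of 1 line. Nothing in the labels says that the libraries of a group came from separate cultures, so p-values measure only the spread between these libraries. In such bulk RNA, fewer cells that express a gene and less RNA per cell cannot be told apart.

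Each library was a QuantSeq library, which reads the 3′ ends of polyadenylated RNA, and held 3055915 to 4868004 counts. A count of 3 corresponded to 0.611 to 0.979 CPM (counts scaled to a common library total, with TMM factors), a limit that covers counting error only. ELK3 itself was at 138 and 166 CPM with the NC mimic, 102 and 103 CPM with miR-200a, and 96.2 and 79.2 CPM in the pair of libraries labelled miR-200a plus ELK3. ELK3 was thus not higher in the libraries labelled as carrying its plasmid. By edgeR's quasi-likelihood test, used below, it was lower there than with the NC mimic (log2 fold change -0.79, adjusted p = 0.0117). Against miR-200a the log2 fold change was -0.23 (adjusted p = 0.354), which was not called. The plasmid holds the coding region without an intact 3′UTR, and how reads of its transcript were counted in these 3′ libraries is not given in the sources used here, so these counts do not check the label and the pair is named by its label throughout. Of 6 genes that MDA-MB-231 cells are known to express, VIM, AXL, CD44, EGFR and ZEB1 had over 10 counts in every library, whereas SPARC had 0 to 8. Of 5 genes taken as absent from the line, ESR1 was at 0 counts in every library, but CLDN4 had 589 to 1143 and GATA3 had 14 to 42. The 7 leukocyte and macrophage markers, which matter here because macrophages are rich in lysosomes, summed to 25 to 51 counts. Of these markers, CSF1R had 13 to 47 counts per library, while AIF1 and CD163 were at 0 throughout. The 6 fibroblast and endothelial markers summed to 109 to 237 counts, mostly from COL1A1, with DCN at 0.

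The mature microRNA is shown first, with the stretches of the members' 3′UTRs that match its seed exactly. The sequence is from RefSeq (GRCh38.p14, chr1:1167916-1167937, plus strand), and capitals mark the seed, bases 2 to 8:
hsa-miR-200a-3p: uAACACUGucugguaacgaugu
Only exact matches to the complement of this seed were sought, in a single annotated transcript per gene. The length of the 3′UTR was not taken into account. That complement is CAGTGTT. It was found in the 3′UTR (the transcript's own strand, GENCODE 29 on GRCh38) of 2 of 39 members, 5.13%, and of 2135 of 11261 tested genes with a 3′UTR, 19%. The members were IDS, which encodes iduronate 2-sulfatase, and SCARB2, which encodes LIMP-2, the sorting receptor of glucocerebrosidase. ELK3 is shown for comparison, and capitals mark the match:
IDS (chrX:149481474-149481480, minus strand): tacaaagtctcCAGTGTTtccaggtaaata
SCARB2 (chr4:76160619-76160625, minus strand): tcagttctttcCAGTGTTttgtagctcact
SCARB2 (chr4:76160400-76160406, minus strand): atcatatgtcaCAGTGTTcagaattcaagc
ELK3 (chr12:96269668-96269674, plus strand): gtctgcttaatCAGTGTTaaactgctatgg
In the first comparison below, miR-200a with the NC mimic, the fitted log2 fold change was 0.02 for IDS and 0.00 for SCARB2, and it was -0.56 for ELK3 (adjusted p = 0.232, edgeR's quasi-likelihood test). None of the 3 passed the test in that comparison. A match is a description of the letters in the annotated 3′UTR and not evidence of binding.

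The CLEAR element was looked up in the members' promoters (RefSeq, GRCh38.p14, 250 bases before to 50 bases after the start of transcription), since the pathway's own regulator is among the members. Promoter entries matched 29 of the 39 genes. The consensus palindrome, which is the hexamer CACGTG with GT before it and AC after it and reads the same on both strands, was in 2 of these 29 (6.9%, GAA and MCOLN1) and in 104 of 27305 promoters of all genes (0.381%). Its inner hexamer CACGTG, which the longer form contains, was in 9 of 29 (31%: ATP6V0D1, CD63, CTSA, CTSD, CTSF, GAA, LAMP1, MCOLN1 and NEU1) and in 2030 of 27305 (7.43%). The element is known from lysosome promoters, so these shares describe the set and are not a result of these libraries. The windows below are chosen to set members that were later called beside members that were not, with the hexamer in capitals:
ATP6V0D1 (chr16:67481199-67481228, minus strand): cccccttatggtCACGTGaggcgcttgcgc
CTSF (chr11:66568712-66568741, minus strand): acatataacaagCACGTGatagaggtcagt
CTSF (chr11:66568640-66568669, minus strand): ccctgcgcgcccCACGTGcctcctgtaaac
GAA (chr17:80101538-80101567, plus strand): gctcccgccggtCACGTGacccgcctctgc
MCOLN1 (chr19:7522598-7522627, plus strand): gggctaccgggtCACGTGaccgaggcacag
LAMP1 (chr13:113297199-113297228, plus strand): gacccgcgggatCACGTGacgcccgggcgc
CTSD (chr11:1763957-1763986, minus strand): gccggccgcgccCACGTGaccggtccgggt
In the windows shown, the hexamer began 59 bases before the start in ATP6V0D1, 123 and 51 bases before it in CTSF, 31 in GAA, 14 in MCOLN1, 28 in LAMP1 and 47 in CTSD. The start is that of the promoter entry. The GENCODE gene spans given below begin elsewhere, and the windows of ATP6V0D1, CTSF and CTSD lie within them. ATP6V0D1 was later called higher and CTSF lower, and GAA, MCOLN1, LAMP1 and CTSD were not called, so members with the hexamer were found on either side and among those without a call.

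The first comparison asked how miR-200a alone changed the lysosome genes. By edgeR's quasi-likelihood test with Benjamini-Hochberg adjustment over all genes tested, 0 of 39 members passed an adjusted p of 0.05, where 0.269% of all genes did. At an unadjusted p under 0.05 there were 2, GM2A and CTSZ, both with higher values with miR-200a, which is 5.13% of the members where 1169 of all genes tested (9.24%) were under that p, and DESeq2 and limma also called 0. The median log2 fold change of the members was 0.03, against -0.02 over all genes. The summed CPM of the members was 4673 ± 66.6 for the NC mimic and 4701 ± 5.58 in the miR-200a libraries (SD, n = 2 each).

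GM2A, which encodes the activator protein that presents ganglioside GM2 to beta-hexosaminidase, came nearest to a call. It was at 50.3 and 41.8 CPM with the NC mimic and at 72.3 and 78.7 CPM with miR-200a. These values did not overlap, and the log2 fold change was 0.71 ± 0.16 (SE) with an adjusted p of 0.131. The call depended on which libraries shared the fit. With the pair labelled miR-200a plus ELK3 left out altogether, GM2A was called (adjusted p = 0.00025), as were CTSZ (cathepsin Z, log2 fold change 0.41) and GRN (progranulin, 0.30). The share of all genes called in that fit is not given here, and the 0.269% above is from the fit of all 3 groups. These calls therefore do not set the members apart from other genes. Over the 15 alternatives the adjusted p of GM2A ranged from 0.00018 to 0.9998.

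The second comparison set the pair labelled miR-200a plus ELK3 beside miR-200a alone, and so asked what the addition of the plasmid changed. Of the 39 members, 9 were called. CTSB, CTSF, IDUA, GM2A, NPC2, GRN and LAMP2 were lower and CTSC and ATP6V0D1 were higher in the pair labelled miR-200a plus ELK3. The 7 lower calls were 17.9% of the members where 5.91% of all genes tested were called lower, and the 2 higher calls were 5.13% where 7.03% were called higher. At an unadjusted p under 0.05 in the same test there were 21 members (53.8%), 17 lower and 4 higher, where 30.6% of all genes were under that p. The lower calls include CTSF and IDUA, which passed the filter through the groups in which they were high. With at least 10 counts required in every library, CTSB, GM2A, NPC2, GRN and LAMP2 were still called lower, and CTSC and ATP6V0D1 higher. For 22 members (56.4%) both of the pair labelled miR-200a plus ELK3 were below both miR-200a libraries, and for 5 (12.8%) both were above, where over all genes these shares were 28% and 30.2%. The median log2 fold change was -0.32 for the members (quartiles -0.59 and -0.02) and 0.02 for all genes (quartiles -0.34 and 0.34).

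The third comparison set the same pair, labelled miR-200a plus ELK3, beside the NC mimic, and so is not independent of the second. Of the members, 8 were called. CTSB, CTSF, CTSH, LIPA, NPC2 and LAMP2 were lower and CTSC and ATP6V0D1 were higher in the pair labelled miR-200a plus ELK3. The 6 lower calls were 15.4% of the members against 5.95% of all genes called lower, and the 2 higher calls were 5.13% against 6.92%. At an unadjusted p under 0.05 in the same test there were 12 members, 10 lower and 2 higher. That is 30.8% of the members, near the 30.6% of all genes tested. The lower calls again include CTSF, which passed the filter through the groups in which it was high. Both libraries were below both NC mimic libraries for 19 members (48.7%) and above for 5 (12.8%), against 27.6% and 29% of all genes, and the median was -0.22 against 0.01. The summed CPM of the members was 4050.3 ± 354 in the pair labelled miR-200a plus ELK3 (SD, n = 2), so that these libraries also differed more from each other than the libraries of the other groups did.

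**Figure D1:**
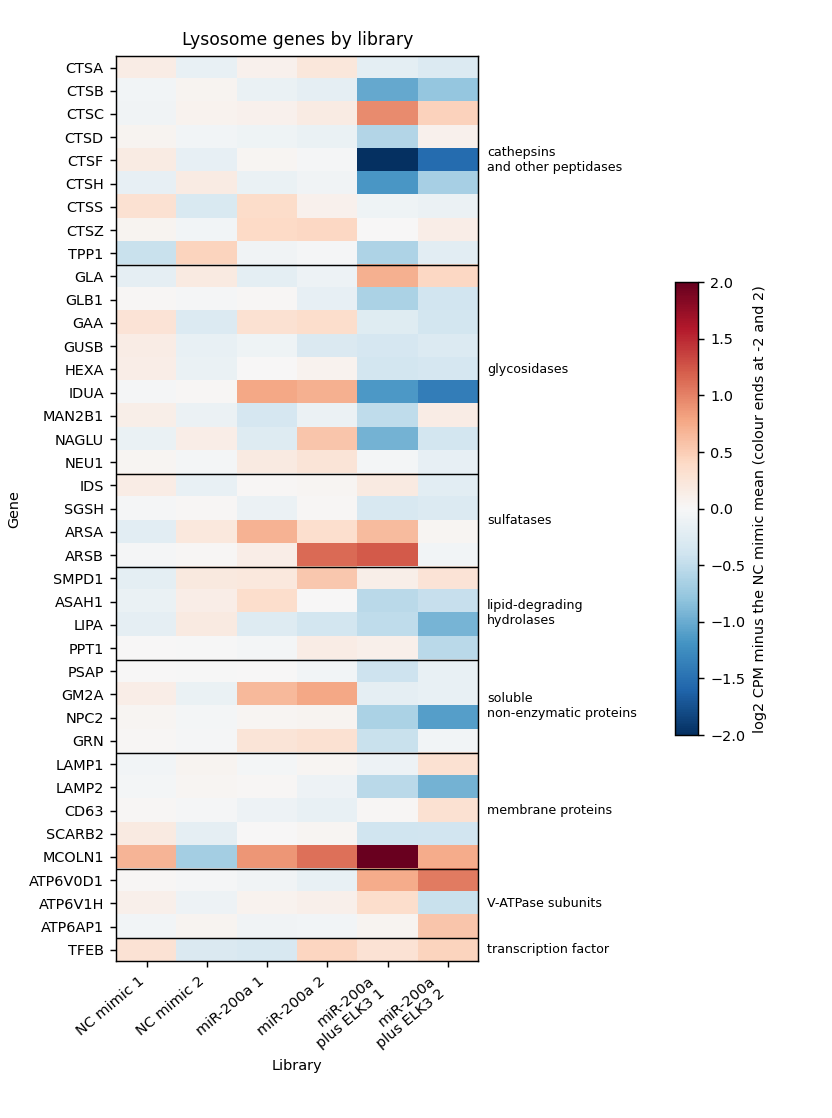
Level of each of the 39 lysosome genes (rows, grouped by role) in each of the 6 libraries (columns), as log2 CPM minus the mean of the 2 NC mimic libraries, in colours that end at -2 and 2. Blue fields, below the NC mimic, gather in the columns labelled miR-200a plus ELK3, most deeply for CTSF and IDUA, while CTSC and ATP6V0D1 are red there.

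Among the peptidases, CTSB (cathepsin B, a cysteine protease that can act as an endopeptidase and remove dipeptides) had the smallest adjusted p of the 9. It was at 364 and 389 CPM with the NC mimic, 342 and 331 CPM with miR-200a, and 185 and 219 CPM in the pair labelled miR-200a plus ELK3. The last pair lay below all 4 others. The level was 1.66-fold lower than with miR-200a (log2 fold change -0.73 ± 0.13, adjusted p = 0.00782) and 1.86-fold lower than with the NC mimic (-0.90 ± 0.13, adjusted p = 0.00285).

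CTSF (cathepsin F, a cysteine protease; chr11:66563463-66568841, minus strand, GRCh38) had a larger difference at a much lower level. Its 4 values with the NC mimic and miR-200a were 14, 11.1, 12.9 and 12.2 CPM, and those in the pair labelled miR-200a plus ELK3 came to 2.13 and 4 CPM, which are 9 and 17 counts. It was 4.06-fold lower than with miR-200a (adjusted p = 0.00836) and 4.1-fold lower than with the NC mimic (adjusted p = 0.00798). CTSF was 1 of 4 members with fewer than 10 counts in some library. It passed the filter through the groups in which it was high.

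CTSH (cathepsin H, an aminopeptidase; chr15:78921058-78949574, minus strand) was at 23.6 and 29.7 CPM with the NC mimic, 24.1 and 25.1 CPM with miR-200a, and 11.6 and 16.5 CPM in the pair labelled miR-200a plus ELK3. It fell by 0.91 ± 0.25 on the log2 scale against the NC mimic (adjusted p = 0.037). Against miR-200a the log2 fold change was -0.81 ± 0.24 with an adjusted p of 0.0537, just outside the threshold, so that the 2 comparisons gave nearly the same size and different calls.

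CTSC (cathepsin C, or dipeptidyl peptidase I, which activates granule serine proteases; chr11:88293592-88337787, minus strand) was the exception in this group. It was at 125 and 138 CPM with the NC mimic, 139.7 and 147 CPM with miR-200a, and 254 and 182 CPM in the pair labelled miR-200a plus ELK3. Both of the last values lay above the other 4, with a wide gap between them. The level was 1.52-fold higher than with miR-200a (log2 fold change 0.61 ± 0.16, adjusted p = 0.0384) and 1.66-fold higher than with the NC mimic (0.73 ± 0.17, adjusted p = 0.0211). Without the first library of the last pair, the log2 fold changes were 0.33 and 0.48.

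CTSD, the aspartic protease cathepsin D (chr11:1752752-1764573, minus strand), was not called. It had 547 and 511 CPM with the NC mimic and 499 and 485 CPM with miR-200a, and the pair labelled miR-200a plus ELK3 was at 351 and 559 CPM, one below and one above all the rest. Its log2 fold changes of -0.11 against miR-200a and -0.22 against the NC mimic became 0.18 and 0.083 without the first of these libraries. CTSA, CTSS, CTSZ and TPP1 had log2 fold changes of -0.33 to -0.39 against miR-200a, of which none was called.

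**Figure D2:**
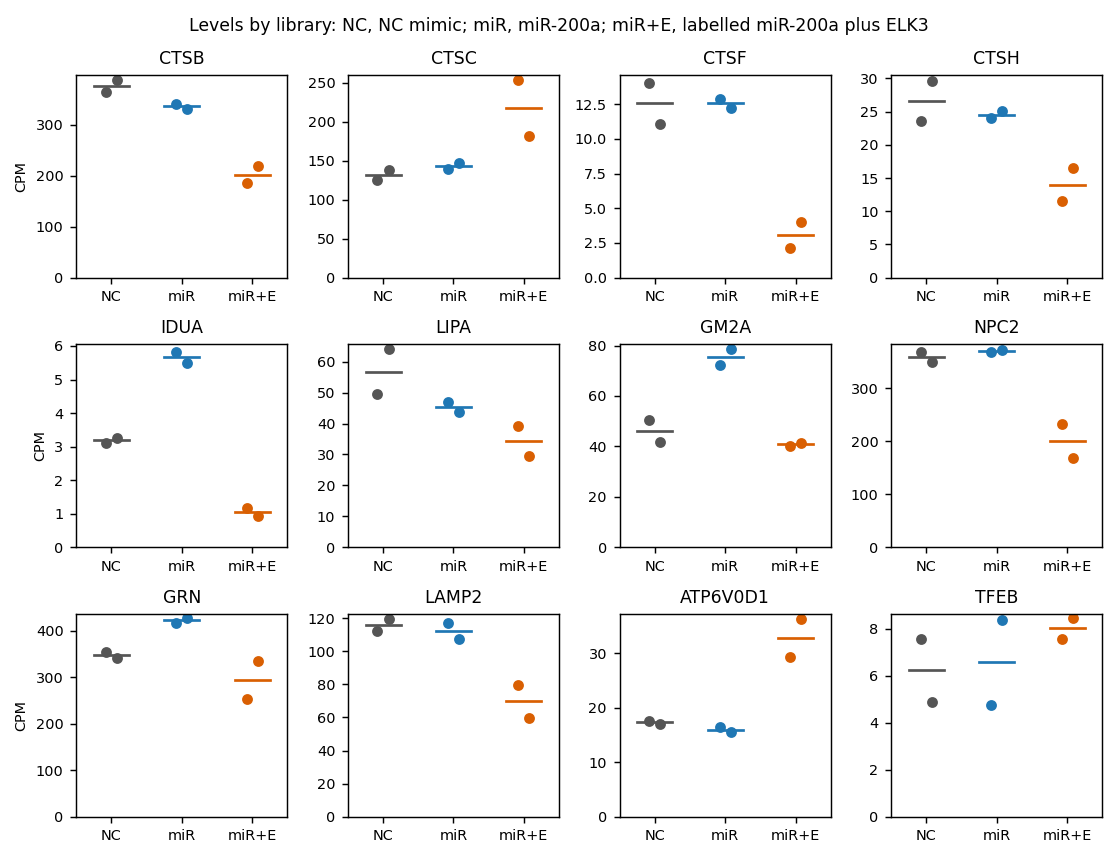
CPM in each library (points) and group mean (bar) for the 11 members called in any comparison and for TFEB, with each vertical axis from 0. In the 9 members called lower in either comparison, both points labelled miR-200a plus ELK3 lie below the other 4, and in CTSC and ATP6V0D1 they lie above them.

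Of the 9 glycosidases, which remove sugars from glycoproteins, glycolipids and glycosaminoglycans, 1 was called. IDUA (alpha-L-iduronidase, which cuts heparan and dermatan sulfate; chr4:986997-1004506, plus strand) was at 3.12 and 3.26 CPM with the NC mimic, 5.81 and 5.5 CPM with miR-200a, and 1.18 and 0.94 CPM in the pair labelled miR-200a plus ELK3. These are 14, 10, 28, 27, 5 and 4 counts, and the 3 groups did not overlap. IDUA was 5.21-fold lower than with miR-200a (log2 fold change -2.38 ± 0.47, adjusted p = 0.0127), and the log2 fold change against the NC mimic was -1.56 ± 0.52 (adjusted p = 0.0756). Like CTSF it passed the filter through the groups in which it was high. Its exons overlap those of SLC26A1 on the opposite strand, and the strand setting of the counting is not given in the sources used here. Overlaps were sought over all exons and not only at the 3′ ends that these libraries read. Whether reads of these genes were shared was not tested. Exons of another annotated gene on the opposite strand also overlap those of CTSA, CTSD, TPP1, HEXA, SGSH, ASAH1, PPT1 and CD63, and on the same strand those of CTSD, TPP1, GLB1, HEXA, MAN2B1, NAGLU, IDS, NPC2 (the microRNA gene MIR4709) and MCOLN1.

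Of the other glycosidases, 6 had values against miR-200a below 0. GLB1 (beta-galactosidase) came nearest to a call, at 46.9 and 55.9 CPM in the pair labelled miR-200a plus ELK3, set beside 74.3 and 65.2 CPM with miR-200a and 74.4 and 71.8 CPM with the NC mimic. Its adjusted p was 0.0934 against miR-200a and 0.0633 against the NC mimic. GAA (acid alpha-glucosidase, which degrades glycogen; log2 fold change -0.65), NAGLU (alpha-N-acetylglucosaminidase; -0.88), HEXA (the alpha subunit of beta-hexosaminidase; -0.40) and NEU1 (sialidase 1; -0.32) were not called against miR-200a either. GLA (alpha-galactosidase A) had higher values, at 14 and 11.3 CPM against 7.27 and 7.74 CPM with miR-200a, with an adjusted p of 0.111. GUSB (beta-glucuronidase) and MAN2B1 (alpha-mannosidase) overlapped between these groups. Reads of GUSB may be shared with the 8 pseudogenes of its family in the count tables.

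Of the 4 sulfatases, 0 were called by edgeR's quasi-likelihood test, DESeq2 or limma in any comparison, and 0 had an unadjusted p under 0.05. IDS was at 44.2 to 58.3 CPM and SGSH (sulfamidase) at 24.2 to 30.7 CPM over all 6 libraries. ARSA and ARSB, the arylsulfatases A and B, were at 1.11 to 2.49 CPM and 3.06 to 8.05 CPM, and the standard errors of their log2 fold changes against miR-200a were 0.54 and 0.51. In simulated libraries of the second comparison with 12650 genes, the test found 59% of the genes given a 2-fold difference and 88% of those given a 4-fold one. The 200 changed genes were drawn from all expression levels, so these shares are not those of genes as low as ARSA and ARSB. The simulation gave the 3 groups the same spread and changed fewer genes than the 1637 called in the data. In the data, the root mean square replicate difference in log2 CPM over all genes tested was 0.559 in the pair labelled miR-200a plus ELK3 and 0.342 with miR-200a.

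Among the 4 lipid-degrading hydrolases, LIPA (lysosomal acid lipase, which frees cholesterol and fatty acids from cholesteryl esters and triglycerides; chr10:89213569-89414557, minus strand) was called in the third comparison. It was at 49.4 and 64 CPM with the NC mimic, 46.9 and 43.6 CPM with miR-200a, and 39.3 and 29.4 CPM in the pair labelled miR-200a plus ELK3. LIPA fell by 0.72 ± 0.20 on the log2 scale against the NC mimic (adjusted p = 0.043). Against miR-200a its log2 fold change was -0.40 (adjusted p = 0.208). The acid ceramidase ASAH1 (log2 fold change -0.70 against miR-200a, adjusted p = 0.0883), the palmitoyl-protein thioesterase PPT1 (-0.24) and the acid sphingomyelinase SMPD1 (-0.19) were not called.

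The 4 soluble proteins without hydrolase activity of their own bind lipids or help the hydrolases. In all 4, both of the pair labelled miR-200a plus ELK3 were below both libraries of either other group, and 3 were called against miR-200a. Over all genes tested, 28% were below both miR-200a libraries in this way, and 27.6% below both NC mimic libraries. For GM2A and GRN the gap from the NC mimic was small, with nearest libraries at 41.4 and 41.8 CPM and at 336 and 341 CPM. NPC2 (the sterol carrier that hands cholesterol to NPC1; chr14:74476192-74494177, minus strand) was at 369 and 349 CPM with the NC mimic, 368 and 373 CPM with miR-200a, and 232 and 168 CPM in the pair labelled miR-200a plus ELK3. It was 1.85-fold lower than with miR-200a (log2 fold change -0.89 ± 0.15, adjusted p = 0.00782) and 1.79-fold lower than with the NC mimic (-0.84 ± 0.15, adjusted p = 0.0087).

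GM2A (chr5:151212150-151270440, plus strand) was highest in the miR-200a libraries, given above. The pair labelled miR-200a plus ELK3 was at 40.3 and 41.4 CPM, 1.85-fold below miR-200a (log2 fold change -0.89 ± 0.16, adjusted p = 0.00931) and near the NC mimic (-0.18 ± 0.17, adjusted p = 0.501). GRN (progranulin, the precursor of lysosomal granulins; chr17:44345086-44353102, plus strand) had a like order, with 355 and 341 CPM for the NC mimic, 417 and 429 CPM for miR-200a, and 254 and 336 CPM in the pair labelled miR-200a plus ELK3. It was 1.43-fold lower than with miR-200a (-0.52 ± 0.14, adjusted p = 0.0389), and its adjusted p against the NC mimic was 0.285. Without the first library labelled miR-200a plus ELK3, the log2 fold change of GRN in the second comparison was -0.34. PSAP, the precursor of the saposins, had 638 and 772 CPM in the pair labelled miR-200a plus ELK3 and 826 to 857 CPM in the other 4, and was not called (log2 fold change -0.25 against miR-200a, adjusted p = 0.186).

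LAMP1 and LAMP2, the heavily glycosylated proteins that line the lysosomal membrane, gave different calls. LAMP2, which also serves in chaperone-mediated autophagy (chrX:120427827-120469365, minus strand), was at 112 and 119.8 CPM with the NC mimic, 117 and 108 CPM with miR-200a, and 79.8 and 59.9 CPM in the pair labelled miR-200a plus ELK3. It was 1.61-fold lower than with miR-200a (log2 fold change -0.69 ± 0.16, adjusted p = 0.0242) and 1.66-fold lower than with the NC mimic (-0.73 ± 0.16, adjusted p = 0.0203). LAMP1 (chr13:113297241-113323672, plus strand) was at 265 to 283 CPM in the first 4 libraries and at 254 and 337 CPM in the pair labelled miR-200a plus ELK3. Compared with miR-200a, it had a log2 fold change of 0.11 with a 95% interval of -0.21 to 0.43, and without the second library labelled miR-200a plus ELK3 it was -0.14. Whether LAMP1 and LAMP2 differed from each other in their response was not tested.

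The other membrane proteins were not called. SCARB2 was at 72.9 and 73.8 CPM in the pair labelled miR-200a plus ELK3, below all 4 others, with an adjusted p of 0.109 against miR-200a and 0.112 against the NC mimic. CD63, a tetraspanin of late endosomes and exosomes, was at 531 and 650 CPM there and at 490.0 and 474 CPM with miR-200a (log2 fold change 0.29, adjusted p = 0.145). MCOLN1, the calcium channel TRPML1, had 1 to 19 counts per library, and its log2 fold change of 1.54 against the NC mimic was not called (adjusted p = 0.188).

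Of the 3 subunits of the proton pump, ATP6V0D1 (subunit d1 of the membrane sector; chr16:67438014-67481237, minus strand) was called higher. It was at 17.6 and 17 CPM with the NC mimic, 16.4 and 15.5 CPM with miR-200a, and 29.4 and 36.2 CPM in the pair labelled miR-200a plus ELK3. The last pair lay well above the other 4, with a 2.05-fold higher level than miR-200a (log2 fold change 1.04 ± 0.21, adjusted p = 0.0145) and a 1.89-fold higher level than the NC mimic (0.92 ± 0.22, adjusted p = 0.023). The accessory subunit ATP6AP1 (log2 fold change 0.39 against miR-200a) and ATP6V1H of the peripheral sector (-0.07) were not called.

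TFEB (chr6:41683978-41736259, minus strand) was low and was called in none of the 3 comparisons. It was at 7.57 and 4.89 CPM with the NC mimic, 4.78 and 8.35 CPM with miR-200a, and 7.58 and 8.46 CPM in the pair labelled miR-200a plus ELK3. The 95% intervals of its log2 fold changes were -0.81 to 0.90 for miR-200a against the NC mimic, -0.53 to 1.10 for the second comparison and -0.52 to 1.18 for the third. A 2-fold rise lay within the intervals of the second and of the third. Its activity, which is set largely by phosphorylation and entry into the nucleus, was not measured.

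**Figure D3:**
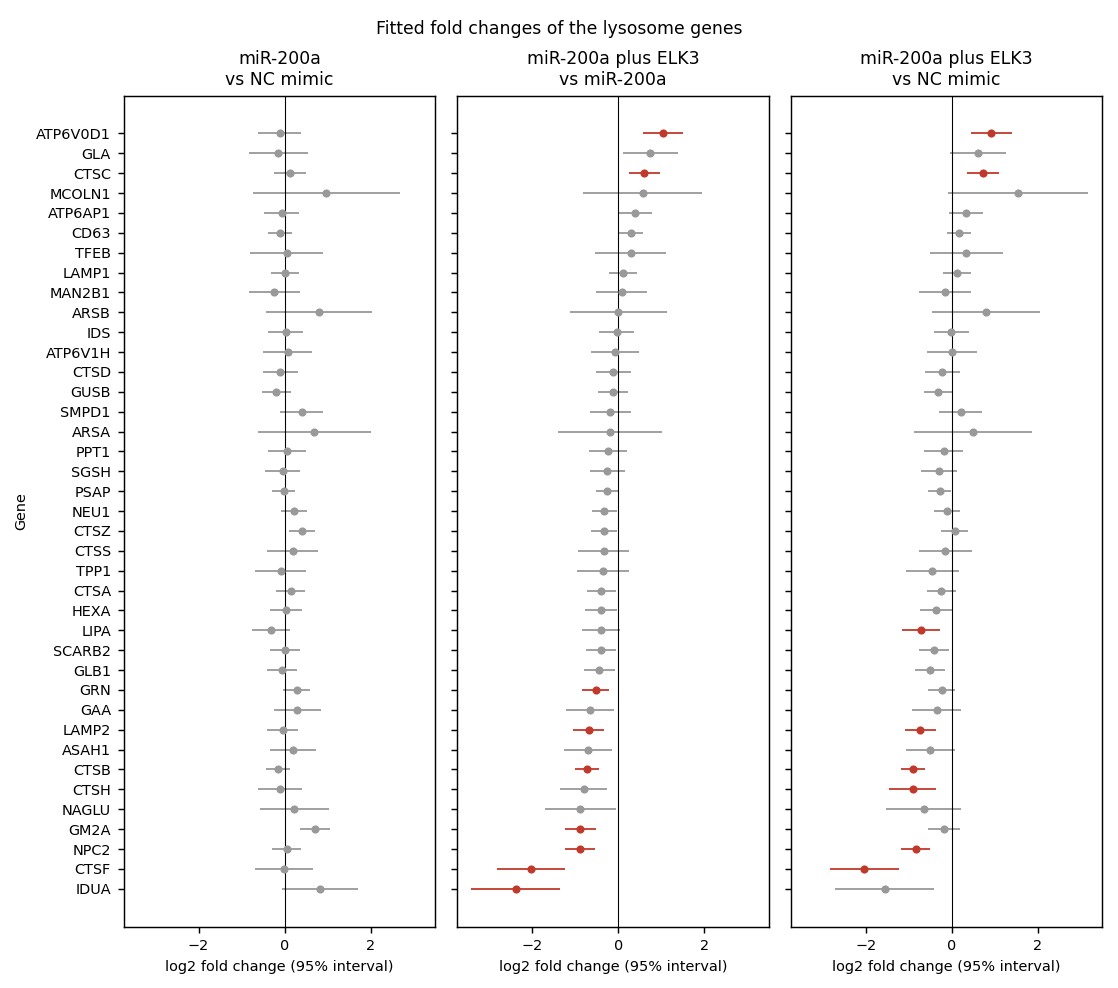
Fitted log2 fold change with its 95% interval for each of the 39 members in the 3 comparisons, ordered by the second one, with called members in red and the others in grey. In the first panel no member is red; in the second, 7 red members lie left of 0 and 2 right of it; in the third, 6 lie left and 2 right.

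The calls depended on single libraries. In the second comparison 0 members were called when either miR-200a library was left out, 6 when either NC mimic library was, and 18 when either library labelled miR-200a plus ELK3 was left out, of which 13 were lower without the first and 16 without the second. In the third comparison the count was 0 without either NC mimic library, 3 without either miR-200a library, and 14 and 15 without the first and second of the pair labelled miR-200a plus ELK3. The share of all genes called in each of these fits is not given here. These counts therefore do not set the members apart from other genes. In the same fits, the median over the members stayed between -0.37 and -0.32 in the second comparison. It stayed between -0.32 and -0.081 in the third, the value nearest 0 being without the first NC mimic library. Where only the compared groups were fitted, CTSB, CTSF and NPC2 were called in both comparisons, and IDUA, GM2A and ATP6V0D1 in the second, whereas CTSC and LAMP2 were called in neither. Limma on quantile-normalized values called IDUA alone in the second comparison, and CTSB, CTSF and IDUA in the third.

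**Figure D4:**
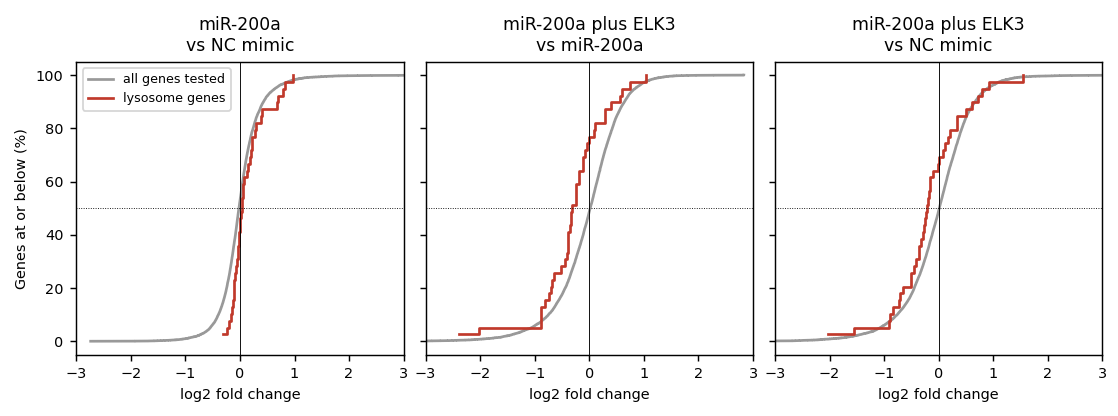
Percentage of genes (vertical axis) at or below each log2 fold change (horizontal axis) for the 39 lysosome genes in red and all 12650 genes tested in grey, in the 3 comparisons. In the first panel the curves cross the 50% line close together, at 0.03 and -0.02; in the second the red curve crosses at -0.32 and the grey at 0.02; in the third at -0.22 and 0.01.

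The rest of the pathway was described with 6 lists that hold none of the members, 192 genes in all, of which 180 were tested. In the first comparison 0 of 180 were called, with 15 at an unadjusted p under 0.05 (8.33%), 1 called by DESeq2 and 0 by limma. In the second 17 were lower and 3 higher in the pair labelled miR-200a plus ELK3 (9.44% and 1.67%, beside 5.91% and 7.03% of all genes tested), and in the third 17 were lower and 5 higher (9.44% and 2.78%, beside 5.95% and 6.92%). The share called lower in the second comparison was 20% of the other hydrolases and 11.4% of the other membrane proteins, but 7.14% of the sorting, 7.41% of the mTORC1 and 7.32% of the autophagy genes, near that of all genes. In the third, these lists had shares of 10%, 8.57%, 7.14%, 14.8% and 9.76% in the same order. The medians of the lists in the second comparison were -0.44 for other hydrolases and -0.28 for other membrane proteins, but 0.00 for other V-ATPase subunits and 0.06 for sorting and maturation. As for the members, the calls depended on single libraries. Every call of a pathway gene named here was lost when either library of the reference group was left out, except those of NPC1, which kept its call against the NC mimic under all 15 alternatives and lost it against miR-200a only without the second miR-200a library (adjusted p = 0.0624).

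Of 30 other hydrolases tested, 6 were lower and 1 higher in the second comparison, and 3 were lower in the third. CTBS (chitobiase, which trims N-glycans) was at 42.8 and 43.4 CPM with the NC mimic, 37 and 41.2 CPM with miR-200a, and 20.8 and 19 CPM in the pair labelled miR-200a plus ELK3, with adjusted p values of 0.0105 and 0.00579. GALC (galactocerebrosidase) fell by 0.94 on the log2 scale against miR-200a (adjusted p = 0.0226), FUCA1 (alpha-L-fucosidase) fell by 0.87 against the NC mimic (adjusted p = 0.0084) and PLD3 (an exonuclease of lysosomal DNA and RNA) by 0.83 (adjusted p = 0.0283). CTSL (cathepsin L) was at 186 and 190.3 CPM with miR-200a and at 132 and 56.6 CPM in the pair labelled miR-200a plus ELK3, a wide spread at which the call just held (it fell by 0.995 ± 0.29 on the log2 scale, adjusted p = 0.0483). Without the first or the second library labelled miR-200a plus ELK3, the log2 fold change of CTSL was -1.74 or -0.54. The higher gene was HYAL3, of the hyaluronidase family, which rose by 1.98 on the log2 scale against miR-200a (adjusted p = 0.0155). It went from 1.66 and 1.83 CPM (8 and 9 counts) to 6.39 and 7.52 CPM (27 and 32 counts). Like CTSF and IDUA it passed the filter through the groups in which it was higher. With at least 10 counts required in every library it was not tested. With the NC mimic it was at 3.56 and 2.94 CPM (16 and 9 counts), and it was not called in the third comparison.

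Of 35 other membrane proteins tested, 4 were lower in the second comparison, and 3 were lower and 1 higher in the third. NPC1, the partner of NPC2 in moving cholesterol out of the lysosome, was at 205 and 203 CPM with the NC mimic, 177 and 186 CPM with miR-200a, and 85 and 63.5 CPM in the pair labelled miR-200a plus ELK3. The log2 fold changes were -1.29 ± 0.16 against miR-200a (adjusted p = 0.00208) and -1.46 ± 0.16 against the NC mimic (adjusted p = 0.000802), so that NPC1 and NPC2 were both lower in both comparisons. NCSTN (nicastrin, of gamma-secretase; -1.18, adjusted p = 0.0497, or -2.15 and -0.64 without the first and the second library labelled miR-200a plus ELK3) and the cation channel TPCN1 (-0.73, adjusted p = 0.0156) were lower against miR-200a. Against the NC mimic, TPCN1 (-0.57, adjusted p = 0.0378) and the metal transporter SLC11A2 (-0.58, adjusted p = 0.0446) were lower and the cystine transporter CTNS was higher (0.67, adjusted p = 0.0312).

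Of 19 other V-ATPase subunits tested, 0 were called in the second comparison by edgeR's quasi-likelihood test (6 at an unadjusted p under 0.05, with DESeq2 calling 1 and limma 0), and 2 were higher and 1 lower in the third. ATP6V1C1 was at 26.9 and 22.8 CPM with the NC mimic, 49.4 and 46.9 CPM with miR-200a, and 52.8 and 43.7 CPM in the pair labelled miR-200a plus ELK3. The log2 fold change was 0.95 for the third comparison (adjusted p = 0.0118) and 0.94 for miR-200a against the NC mimic (adjusted p = 0.0794). ATP6V0B rose by 0.49 against the NC mimic (adjusted p = 0.0486), and TCIRG1, which encodes the a3 subunit, fell by 0.87 (adjusted p = 0.0274).

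Hydrolase sorting and maturation gave calls on either side, 2 lower and 2 higher of 28 against miR-200a, and 2 lower and 1 higher against the NC mimic. IGF2R, the cation-independent mannose 6-phosphate receptor, was at 225 and 256 CPM with miR-200a and at 173 and 91.4 CPM in the pair labelled miR-200a plus ELK3 (log2 fold change -0.87, adjusted p = 0.0388). Without the first or the second of this pair, that of IGF2R was -1.41 or -0.51, and against the NC mimic it was -1.07 (adjusted p = 0.0191), or -0.69 without the second. The adaptor subunits AP1S2 and AP1S3, which serve in transport between the Golgi and endosomes, had opposite signs, with -0.47 (adjusted p = 0.0408) and 1.17 (adjusted p = 0.0114). CLN6, of the endoplasmic reticulum membrane, rose by 0.99 (adjusted p = 0.0357), a call lost without the second library of the pair, at 0.64.

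Of 27 genes of mTORC1 at the lysosome and of the TFEB family, 2 were lower in the second comparison, and 4 were lower and 1 higher in the third. FLCN (folliculin) and its partner FNIP1, which act on the Rag GTPases, fell by 0.65 (adjusted p = 0.0271) and 0.75 (adjusted p = 0.0117) on the log2 scale against miR-200a. Against the NC mimic, MITF (log2 fold change -0.87, adjusted p = 0.027) and LAMTOR3 of the Ragulator complex (-1.48, adjusted p = 0.0256) were lower and MTOR was higher (0.83, adjusted p = 0.0468). TFE3 was called in none of the comparisons, with log2 fold changes of 0.22, -0.25 and -0.03.

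Of 41 autophagy genes tested, 3 were lower in the second comparison and 4 in the third, with none higher in either. SQSTM1, the cargo receptor p62, was at 735 and 745 CPM with the NC mimic, 709.9 and 728 CPM with miR-200a, and 356 and 421 CPM in the pair labelled miR-200a plus ELK3 (adjusted p = 0.00293 and 0.00178). WIPI1 and GABARAPL1, which act in forming the autophagosome membrane, fell by 1.01 (adjusted p = 0.0239) and 0.81 (adjusted p = 0.0203) on the log2 scale against miR-200a.

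**Figure D5:**
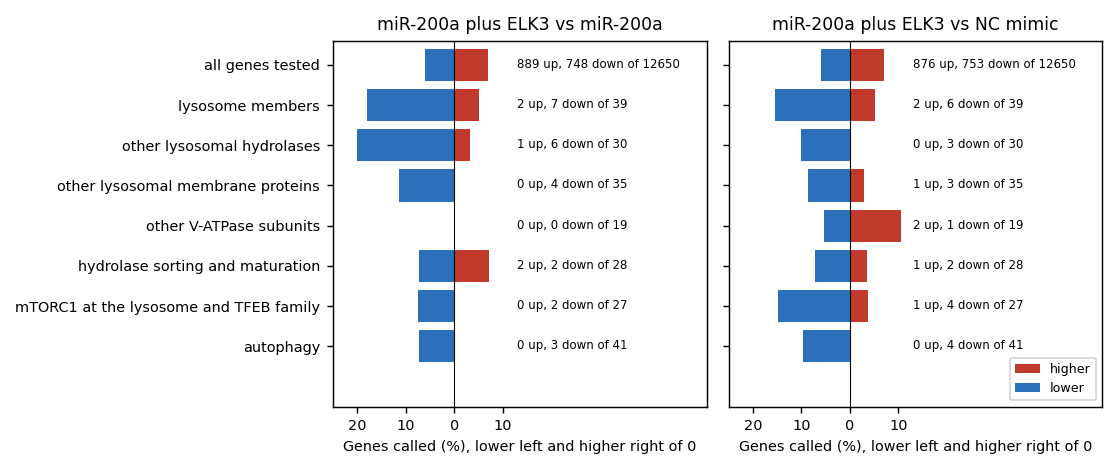
Percentage of tested genes called lower (left, blue) and higher (right, red) in the pair labelled miR-200a plus ELK3 than in miR-200a (first panel) and than in the NC mimic (second panel), for all genes, the 39 members and the 6 pathway lists, with the counts printed. The members have 2 up and 7 down of 39 in the first panel and 2 up and 6 down in the second, beside 889 up and 748 down, and 876 up and 753 down, of 12650.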

How the data were processed

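The authors deposited 6 QuantSeq libraries as raw counts, listed by symbol, and the submitters' processing notes name Bowtie2, edgeR and the build hg19, with versions, counting program, annotation and strand setting not given in the sources used here. Symbols on several of the 25737 lines (286 of 24462) were summed. Groups came from the sample labels. With edgeR 4.0.16 in R 4.3.3, the counts were filtered (filterByExpr, minimum count 10), scaled by TMM and fitted in 1 model of 3 groups and 6 libraries, with 3 residual degrees of freedom. The quasi-likelihood test was adjusted by Benjamini-Hochberg over 12650 genes, and a call is an adjusted p under 0.05. CPM use the library totals times their TMM factors, and errors of log2 fold changes are SE. Alternatives were DESeq2 1.42.0, limma 3.58.1 on quantile-normalized log2(count + 1), upper-quartile and RLE scaling, no filter, 10 counts in every library, a fit of the compared groups alone, the replicate number as a block and each library left out. The test was tested on simulated data. The members, the lists and the tests were chosen with earlier results of these data known. Named genes are members that were called in a comparison, TFEB, LAMP1, LAMP2 and CTSD, for each pathway list up to 3 called genes with the largest change in each direction, and TFE3, MITF, CTSL, SQSTM1 and NPC1. Other members are given by role and were named after their values were seen.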

Additional observations from a re-analysis of the deposited data

How the results depend on the processing

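With 2 libraries per group, the counts of called members moved most. The share of all genes called is not given for the alternatives, so their counts do not set the members apart from other genes. For miR-200a against the NC mimic the count was 0, and it was 1 without a filter, 3 with only the compared groups fitted and 0 to 3 over the fits that leave out 1 library (3 without either library labelled miR-200a plus ELK3), with a median log2 fold change of 0.0061 to 0.087. For the pair labelled miR-200a plus ELK3, compared with miR-200a, the count of 9 became 1 with limma and 0 to 18 with 1 library left out, and the median of -0.32 became -0.39 with upper-quartile scaling. Against the NC mimic the count of 8 became 3 with limma, 3 with only the compared groups and 0 to 15 with 1 library left out, and the median of -0.22 became -0.28 with upper-quartile scaling and -0.32 to -0.081 with 1 library left out. The replicate numbers did not pair the libraries (correlations of same-numbered deviations from the group means -0.0030, -0.036 and -0.11 over 12650 genes). A replicate block gave 0, 7 and 7 calls in the 3 comparisons, among the members CTSC, GRN and LIPA lost a call, among the pathway genes AP1S2 did against miR-200a and ATP6V0B, CTNS, MTOR, SLC11A2 and TPCN1 did against the NC mimic, and no other call reported by name was lost; the crossed pairing, with the numbers of the pair labelled miR-200a plus ELK3 exchanged, chosen after seeing the data, gave 0, 9 and 8. Signs turned only in log2 fold changes that were not called in the reported fit. For miR-200a against the NC mimic, CTSF was 0.0037 with DESeq2, 0.0085 without a filter, 0.0077 with limma, 0.0083 with the crossed block and -0.16 to 0.18 with 1 library left out, and LAMP1 was -0.000238 with the block. With 1 library left out, LAMP1 was -0.046 to 0.048, CTSH -0.27 to 0.058, LAMP2 -0.11 to 0.017 and TFEB -0.41 to 0.42 in that comparison. Against miR-200a, TFEB was -0.060 to 0.75, CTSD -0.52 to 0.18 and LAMP1 -0.14 to 0.29, and against the NC mimic CTSD was -0.61 to 0.083, LAMP1 -0.12 to 0.31 and TFE3 -0.17 to 0.14. The cause of these turns was not tested, and the leave-one-out fits also hold fewer libraries. A group left with 1 library was assumed to vary like the others. No other sign among the genes chosen by the naming rule turned in the comparisons reported for them. The members with the smallest count in any library were MCOLN1 (1), IDUA (4), ARSA (5), CTSF (9) and ARSB (10). For IDUA and CTSF that count was in the pair labelled miR-200a plus ELK3. Whether depth limited the tests of these members was not tested.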
